A study of Nannochloropsis oceanica with 18 samples.

Results

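The transcripts of g2456 and g9217, 2 of the 9756 genes in the deposited tables of *Nannochloropsis oceanica*, were nearly absent from cells moved to very low CO2 and abundant in cells kept at high CO2 for the same 6 h. Both genes were selected on those 6 h values, that is, a level near 0 in very low CO2 and above 100 FPKM (fragments per kilobase of transcript, scaled to the mapped fragments of each library) in high CO2, so the 6 h contrast is described below without a test. *N. oceanica* strain IMET1 is a unicellular marine alga. Its cells were grown in modified f/2 medium at 25 °C under continuous light and bubbled with 5% CO2 in air, washed, and preadapted for 1 h at 5% CO2 in fresh medium (0 h). The culture was then split between 0.01% CO2 (very low carbon, VLC) and 5% CO2 (high carbon, HC), and mRNA libraries were made after 3, 6, 12 and 24 h. The 18 libraries form 9 groups of 2, drawn at random from 3 cultures per condition, and the 0 h libraries are the starting point of both arms. The paper sampled the same cultures at every hour, so libraries of 1 arm at different hours can come from 1 culture. The labels do not name the culture of a library, and the tests below treat all 18 libraries as independent. All groups share the strain, the medium, the light and the earlier growth at 5% CO2. An HC sample and a 0 h sample share the CO2 level of the gas supplied, but they differ in more than time. The paper reports that dissolved inorganic carbon in the HC medium rose rapidly, and it ascribes this rise to the start of aeration. The 0 h cells had also been washed and placed in fresh medium shortly before. Whether either bears on the changes from 0 h to HC was not tested.

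The deposited annotation names g2456 a ferredoxin component, and the study's protein annotation, as far as it is held here, calls it a rieske (2fe-2s) region protein. It spans positions 642714 to 644318 of scaffold00069 of the authors' IMET1 genome (1605 bp). The deposited tables call g9217, at positions 205417 to 207049 of scaffold00330 (1633 bp), only a predicted protein. No source used here describes g9217 as a Rieske or iron-sulfur protein, and it is treated below as a gene of unknown function. Rieske proteins hold a 2Fe-2S cluster between cysteine and histidine side chains. They serve as electron-transfer subunits of the cytochrome b-c1 complex of mitochondria and the cytochrome b6-f complex of chloroplasts, as the electron-accepting domain of oxygenases that act on chlorophyll breakdown products or on choline, and as small ferredoxin-like carriers that pass electrons to such oxygenases. Which of these roles g2456 plays in *Nannochloropsis* is not known from the sources used here.

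The 18 libraries resembled each other in their overall level except those of HC at 12 h. The median gene lay at 17.5 and 17.6 FPKM in the HC 12 h libraries and between 22.4 and 28.1 FPKM in the other 16. The 10 most abundant genes took 15.3 and 15.8% of all FPKM in HC at 12 h and between 4.02 and 8.38% elsewhere. The HC 3 h libraries differed most from each other, with a median difference of 0.23 on the log2 scale between replicates against 0.05 to 0.10 in the other 8 groups. The deposited FPKM tables hold no read counts, and the spread between replicates is the only error given below.

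g2456 lay somewhat below the median gene of both libraries before the split, at 16.9 and 18.7 FPKM. In VLC it measured 3.33 and 4.72 FPKM after 3 h, 3.54 and 4.15 after 6 h, 12.3 and 11.02 after 12 h and 4.32 and 5.11 after 24 h. All 8 VLC libraries were therefore below both 0 h libraries. In HC it measured 165 and 81.2 FPKM after 3 h, 299 and 303 after 6 h, 221 and 187 after 12 h and 47.3 and 49.4 after 24 h. All 8 HC libraries were above both 0 h libraries, and the arms overlapped at no time. In the order of its 9 group levels, VLC at 6 h, 3 h and 24 h came lowest, each overlapping the next in its replicates, followed without overlap by VLC at 12 h, 0 h, and HC at 24, 3, 12 and 6 h. Among all genes, g2456 ranked 5647 of 9756 by mean FPKM at 0 h, 291 in HC at 6 h and 9005 in VLC at 6 h.

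g9217 started from 23.6 and 28.3 FPKM. It measured 5.55 and 4.72 FPKM in VLC after 3 h, 2.23 and 4.25 after 6 h, 25.0 and 27.0 after 12 h and 16.5 and 14.4 after 24 h. At 12 h the VLC libraries thus lay within the range of the 0 h libraries. In HC it measured 57.3 and 43.6 FPKM after 3 h, 112 and 108 after 6 h, 430 and 396 after 12 h and 20.9 and 21.3 after 24 h. Its highest level thus came at 12 h, and by 24 h HC had dropped below both 0 h libraries while staying above both VLC libraries. From the lowest to the highest, its groups ran VLC at 6, 3 and 24 h, HC at 24 h, 0 h, VLC at 12 h, and HC at 3, 6 and 12 h, and only 0 h and VLC at 12 h overlapped in their replicates. In HC at 12 h, g9217 ranked 215 of 9756 genes by mean FPKM, against 4396 at 0 h.

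**Figure D1:**
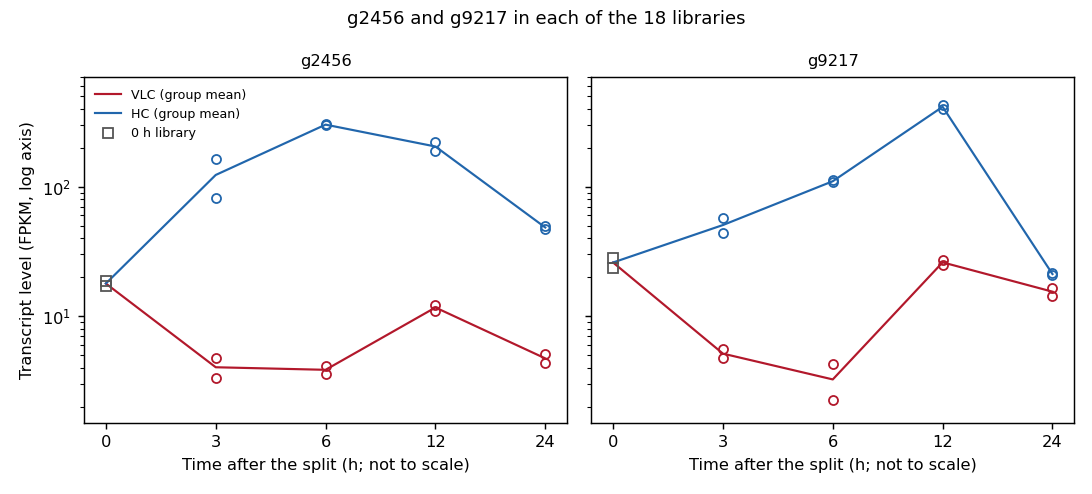
FPKM of g2456 (left) and g9217 (right) on a log axis against the time after the split (0, 3, 6, 12 and 24 h, evenly spaced). Open symbols are single libraries (squares 0 h, red circles VLC, blue circles HC) and lines join group means. g2456 is highest in HC at 6 h (299 and 303 FPKM) and still widely separated between arms at 24 h. g9217 is highest in HC at 12 h (430 and 396 FPKM), and its arms differ by less than 2-fold at 24 h.

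The replicates of most groups were close, with 2 exceptions among the values above. The HC 3 h libraries differed 2.03-fold in g2456, a larger difference than in 99.1% of the 901 genes within 1.5-fold of its level in that group. The VLC 6 h libraries differed 1.90-fold in g9217, more than in 97.1% of 451 genes of like level. Both genes were lower in the second than in the first HC 3 h library. The part played by this library pair in the 3 h results is given by the values without each library, below.

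At 6 h, the time that selected both genes, mean FPKM in HC was 78.2 times that in VLC for g2456 (301 ± 2.67 against 3.85 ± 0.43; mean ± SD, n = 2) and 33.9 times for g9217 (110.0 ± 2.92 against 3.24 ± 1.43). Of the 1083 genes above 100 FPKM in HC at 6 h, the 3 next in order were the unannotated g7214 (3.94-fold) and g7217 (3.71-fold) and the assimilatory nitrate reductase g2405 (3.51-fold). This order uses the values that chose the 2 genes and holds only among genes above that limit. Below the limit, the unannotated g5607 was also near 0 in VLC at 6 h, with 0.25 FPKM against 15.7 in HC. In all, 0.252% of 7932 tested genes were called lower in VLC at 6 h by the criterion explained next, and since this contrast chose the genes, nothing is read from their place among them.

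At the other 3 times VLC and HC were compared by limma on log2(FPKM + 1) in 1 model of the 9 groups. A gene was called where its adjusted p did not exceed 0.05 (Benjamini-Hochberg over genes with a mean of at least 10 FPKM in either group) and its change on that scale reached 2-fold, which understates the change of genes near 0. Both genes were lower in VLC at 3 h, before the time used to choose them. g2456 showed a log2 difference of -4.55 (SE 0.23, 95% interval -5.05 to -4.05, adjusted p = 3.4e-08 by limma) and g9217 one of -3.06 (SE 0.18, -3.45 to -2.67, adjusted p = 1.6e-07). These SEs are shared over all 9 groups. From the 2 groups at 3 h alone, g2456 had an SE of 0.34 (adjusted p = 0.0082 by limma). That of g9217 was 0.19 (adjusted p = 0.0047 by limma). Without the first or the second HC 3 h library, g2456 differed by -4.05 or -5.06 and g9217 by -2.87 or -3.25. Of 7845 genes tested at 3 h, 0.268% were called lower in VLC. By size of the difference g2456 was the second lowest of them and g9217 was the third. Both passed the 10 FPKM minimum at 3 h through HC alone.

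At 12 h both genes again differed between the arms, now with VLC levels above 10 FPKM. The log2 difference was -4.01 for g2456 (SE 0.23, -4.52 to -3.51, adjusted p = 2.8e-09 by limma) and -3.94 for g9217 (SE 0.18, -4.33 to -3.54, adjusted p = 4.9e-10). These were the fourth and the fifth lowest of 8409 genes, of which 4.36% were called lower. The median gene itself stood 0.58 higher in VLC at this time. Counted against it, the differences became -4.60 and -4.52, and the genes called lower rose to 11.4% while those called higher went from 27.6 to 8.85%.

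At 24 h the genes parted. g2456 was still lower in VLC, at 4.71 ± 0.56 against 48.3 ± 1.48 FPKM (SD, n = 2), a log2 difference of -3.11 (SE 0.23, -3.61 to -2.61, adjusted p = 4.6e-08 by limma). It passed the 10 FPKM minimum through HC alone, and 5.95% of 8220 genes were called lower at 24 h. g9217 had 21.1 ± 0.32 FPKM in HC against 15.4 ± 1.44 in VLC, a log2 difference of -0.43 that was not called (SE 0.18, -0.83 to -0.04, adjusted p = 0.053 by limma). Against the median gene the difference was -0.53 (adjusted p = 0.022 by limma), under 2-fold. The libraries of g9217 did not overlap between the arms, and it ranked 1795 of 8220 genes counted from the lowest.

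**Figure D2:**
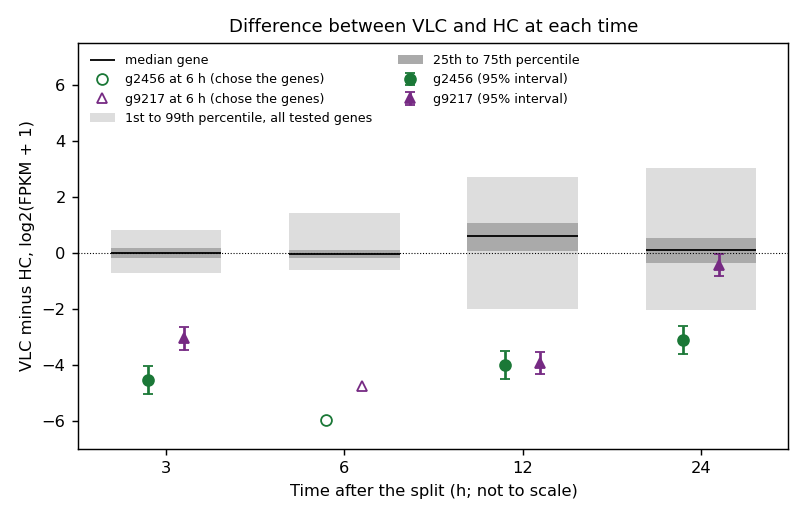
Log2(FPKM + 1) in VLC minus HC (y axis) for g2456 (circles) and g9217 (triangles) at 3, 6, 12 and 24 h, with 95% intervals from limma except at 6 h, whose values chose the genes (open symbols). Grey bars span the 1st to 99th and the 25th to 75th percentiles of all tested genes and the black line is the median gene. Both genes lie below the 1st percentile at 3, 6 and 12 h, where only g2456 remains at 24 h (-3.11 against -0.43 for g9217).

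The narrowing between 3 h and 24 h was tested as a difference of the 2 log2 ratios. It came to 1.44 for g2456 (SE 0.33, adjusted p = 0.0025 by limma) and to 2.63 for g9217 (SE 0.26, adjusted p = 2.0e-06), and 10% of 8560 genes were called in that direction. Without the first HC 3 h library the change of g2456 was 0.93, below 2-fold. From 3 h to 12 h the ratio of g9217 widened by a further -0.88 (SE 0.26, adjusted p = 0.0078 by limma), short of 2-fold, where 4.13% of 8912 genes were called. Counted against the median gene that widening was -1.49 and passed, as it did for 10.9% of genes, and genes that moved toward VLC made up 38.6 rather than 87.2% of the calls. Without the first HC 3 h library it was -1.07 and passed too. For g2456 the change from 3 h to 12 h was 0.54 (SE 0.33, -0.17 to 1.25, adjusted p = 0.16 by limma). It became -0.076 against the median gene, and it reached 1.04 (adjusted p = 0.00051) without the second HC 3 h library.

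Set against the 0 h libraries that both arms share, the 3 h difference was divided unlike in the 2 genes. g2456 fell by 1.92 on the log2 scale in VLC (SE 0.23, adjusted p = 8.0e-06 by limma) and g9217 fell by 2.13 (SE 0.18, adjusted p = 3.0e-07). Both passed the 10 FPKM minimum for this fall through 0 h alone. Of 7990 genes, 4.87% were called lower in VLC at 3 h. In HC, g2456 rose by 2.63 (SE 0.23, adjusted p = 4.9e-07 by limma), a call made by 8.18% of 7962 genes in that direction. Without the first or the second HC 3 h library, its rise was 2.13 or 3.14. g9217 stood 0.93 above 0 h (SE 0.18, adjusted p = 0.00064 by limma), just short of 2-fold. Without the second HC 3 h library it was 1.12 above and passed, and without the second 0 h library 1.05. Counted against the median gene, 58.5 rather than 68.8% of the genes called in HC at 3 h were higher than at 0 h, and the values became 2.54 and 0.84.

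By 12 h neither gene was called below 0 h in VLC. The log2 change was -0.57 for g2456 (SE 0.23, -1.08 to -0.07, adjusted p = 0.034 by limma) and 0.0075 for g9217 (SE 0.18, -0.39 to 0.40, adjusted p = 0.97), at a time when 15.6% of 8767 genes were called lower. Against the median gene, which stood 0.15 above 0 h, the values were -0.72 and -0.14. In HC at 12 h both were far above 0 h, by 3.44 (SE 0.23, adjusted p = 3.3e-09 by limma) and 3.95 (SE 0.18, adjusted p = 6.1e-11). On the FPKM scale that was 11.4 times the 0 h mean for g2456 and 15.9 times for g9217. The median gene was 0.52 below 0 h in those libraries, and 22.4% of 8315 genes were called higher, or 30.1% counted against the median gene. The changes against it were 3.96 and 4.47, and the share of higher genes among all calls went from 38.1 to 58.4%.

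At 24 h g2456 was below 0 h in VLC and above it in HC. It stood at -1.72 in VLC (SE 0.23, adjusted p = 1.0e-05 by limma), where 14.8% of 8436 genes were called lower, and at 1.39 in HC (SE 0.23, adjusted p = 0.00010), where 14% of 8224 genes were called higher. In VLC it passed the 10 FPKM minimum through 0 h alone. g9217 was called in neither arm. Its log2 change was -0.71 in VLC (SE 0.18, -1.11 to -0.32, adjusted p = 0.0028 by limma), less than 2-fold, and -0.28 in HC (SE 0.18, -0.67 to 0.12, adjusted p = 0.18). The 2 arms share the 0 h libraries, so that these values do not bear on each other as separate evidence.

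The step from 12 h to 24 h in each arm was chosen for testing after the values were seen. In HC g9217 lost nearly all of its 12 h level, with a log2 change of -4.23 (SE 0.18, adjusted p = 2.9e-11 by limma), and g2456 changed by -2.05 (SE 0.23, adjusted p = 1.0e-06). In these libraries 20.3% of 8649 genes were called lower at 24 h than at 12 h. The median gene rose by 0.67, and counted against it the changes were -4.90 and -2.72 and 29.2% of genes were called lower, with higher genes making up 40.7 rather than 66.8% of the calls. In VLC g2456 changed by -1.15 (SE 0.23, adjusted p = 0.00043 by limma) and g9217 by -0.72 (SE 0.18, adjusted p = 0.0026), the latter short of 2-fold. For that step g2456 passed the 10 FPKM minimum through 12 h alone. Of 8924 genes, 20.5% were called lower in VLC over the same step, and against the median gene, which rose by 0.12, the changes were -1.27 and -0.84.

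The 2 genes thus changed places in abundance between groups. Since FPKM is scaled by transcript length, their ratio within a library can be read as a ratio of levels. It was 0.72 and 0.66 (g2456 over g9217) at 0 h. In HC it was 2.87 and 1.86 after 3 h, 2.67 and 2.81 after 6 h, 0.51 and 0.47 after 12 h and 2.26 and 2.31 after 24 h. g2456 was therefore the more abundant in HC at every time except 12 h. In VLC the ratio was 0.60 and 1.00 after 3 h, 1.59 and 0.98 after 6 h, 0.49 and 0.41 after 12 h and 0.26 and 0.35 after 24 h. The VLC ratios at 3 h and 6 h rest on levels below 6 FPKM and differed as much between replicates as between times. At 12 h the ratio in HC was close to that in VLC although both genes were more than 15 times as abundant in HC by mean FPKM (17.5-fold for g2456 and 15.9-fold for g9217).

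The peak of g2456 at 6 h in HC depended on the scale, whereas that of g9217 at 12 h did not. Divided by the median gene of its own library, g2456 stood at 12.3 and 12.4 in HC at 6 h and at 12.6 and 10.6 at 12 h, which overlap. g9217 stood at 4.60 and 4.42 at 6 h and at 24.6 and 22.5 at 12 h. Across the 18 libraries log2(FPKM + 1) of the 2 genes correlated with Pearson's r = 0.88 (Spearman's rho = 0.90), a description over samples that share treatments and times and over 2 genes chosen for 1 common contrast.

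g2456 was then set beside the other genes whose annotation names a Rieske protein or a Rieske oxygenase, 11 genes with g2456 and 10 without it. g2456 and g2604 entered this list only through the study's protein annotation, which is held here for 576 genes. Rieske genes with another deposited name and no such entry may be missing from the list. Of the 10 others, 7 reached 10 FPKM in either arm at each time. None of the 7 was called lower in VLC at 3, 6, 12 or 24 h, whereas those called higher numbered 1 after 3 h, 0 after 6 h, 5 after 12 h and 2 after 24 h. At an unadjusted p under 0.05 by limma, the lower genes numbered 0, 0, 0 and 1 and the higher ones 1, 2, 7 and 5 at these times. Over all tested genes 0.701, 1.84, 27.6 and 11.2% were called higher in VLC and 0.268, 0.252, 4.36 and 5.95% lower. None lower among 7 genes is near those shares. The median log2 difference of the 7 was 0.0082, -0.0012, 1.23 and 0.67 at these times, beside -0.017, -0.056, 0.58 and 0.095 over all tested genes. Against the median gene, 2 of the 7 were called higher at 12 h, beside 8.85% of all tested genes.

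The gene most like g2456 by annotation was g2604, also a ferredoxin component and a rieske region protein, on scaffold00080. It was one of the most abundant transcripts, at 1076 and 1033 FPKM before the split. After 3 h the VLC libraries had 1742 and 1755 FPKM and the HC libraries 1716 and 1426. The arms did not overlap there, but the HC libraries lay further apart than the means of the arms, and its log2 difference of 0.16 was not called (adjusted p = 0.19 by limma). At 12 h its HC libraries had 517 and 573 FPKM and its VLC libraries 1264 and 1290, higher in VLC by 1.23 (adjusted p = 9.8e-09 by limma) and by 0.64 against the median gene, under 2-fold. At 24 h its HC libraries had 2105 and 2074 FPKM and its VLC libraries 1692 and 1791, a log2 difference of -0.26. g2604 therefore moved opposite to g2456 at 12 h while exceeding it in every library. Reads that mapped to more than 1 place were left out by the authors, and whether the 2 genes share enough sequence for this to lower either count was not tested.

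The Rieske subunits of the electron-transport complexes were also unlike g2456. The cytochrome b6-f iron-sulfur subunit is encoded by g9470 and g9471. g9471, the abundant copy, had 1636 ± 59.7 FPKM in HC against 1578 ± 175 in VLC at 3 h (SD, n = 2), and at 12 h it was higher in VLC by 1.05 (adjusted p = 8.2e-08 by limma), or by 0.47 and not called against the median gene. g9470 was higher in VLC at 3 h by 1.76 (adjusted p = 2.4e-06 by limma) and at 12 h by 4.58 (adjusted p = 1.5e-11), where the HC libraries had 14.9 and 12.3 FPKM and the VLC libraries 346.3 and 346.1. Its 12 h difference was thus about as large as that of g2456 and in the opposite direction. The cytochrome b-c1 Rieske subunit g5565 had 236 ± 38.0 FPKM in HC against 236 ± 15.5 in VLC at 3 h, and its log2 difference was 0.49 at 12 h, within 2-fold.

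Among the Rieske oxygenases the pheophorbide a oxygenase g8433, an enzyme of chlorophyll breakdown, was higher in VLC at 12 h by 1.29 (adjusted p = 1.7e-09 by limma), or 0.71 against the median gene. A second pheophorbide a oxygenase, g7551, stood 0.78 higher at 12 h, under 2-fold. The third, g5106, and the putative choline monooxygenase g2695, an enzyme of betaine synthesis in plants, stayed below 10 FPKM in both arms at all 4 times and were not tested. The Rieske domain-containing protein g8911 was not tested either, since its group means stayed below 10 FPKM, though its second VLC 12 h library had 10.2. The Rieske domain protein g9221 was higher in VLC by 1.88 at 12 h (adjusted p = 8.5e-09 by limma) and by 2.76 at 24 h (adjusted p = 2.1e-10). It lies 5877 bp beyond g9217.

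**Figure D3:**
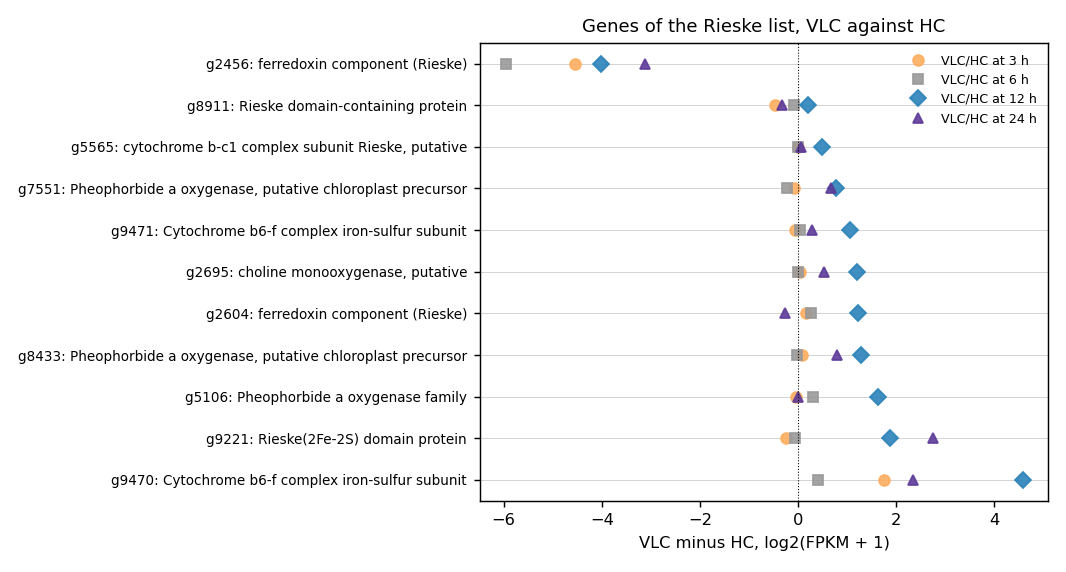
Log2(FPKM + 1) in VLC minus HC (x axis) for the 11 genes of the Rieske list (rows) at 3 h (orange circles), 6 h (grey squares), 12 h (blue diamonds) and 24 h (purple triangles). g2456 lies between -5.96 and -3.11 at the 4 times, while no other gene lies below -0.47 at any time and g9470 reaches 4.58 at 12 h.

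Rieske proteins depend on others that build iron-sulfur clusters or deliver electrons. Of 12 genes of iron-sulfur cluster assembly, 11 were tested at each time. None was called lower in VLC, and 1, 5, 6 and 4 were called higher at 3, 6, 12 and 24 h. Against the median gene 3 were called higher at 12 h and 3 at 24 h, beside 8.85 and 9.62% of all tested genes. As measured, 0.701, 1.84, 27.6 and 11.2% of all tested genes were called higher and 0.268, 0.252, 4.36 and 5.95% lower. None lower among 11 genes is near those shares. At an unadjusted p under 0.05 by limma 2 were lower at 3 h and none at the later times. The median log2 difference of the 11 was 0.20, 0.90, 1.08 and 0.65, beside -0.017, -0.056, 0.58 and 0.095 for all genes. The highest at 12 h was g7640, a putative cysteine desulfurase, the enzyme that supplies the sulfur of such clusters, at 22.0 ± 0.15 FPKM in HC against 99.95 ± 6.17 in VLC (log2 2.13, SE 0.10, adjusted p = 5.0e-10 by limma). The lowest was g574, a mitochondrial assembly protein, at 0.18 (SE 0.13, adjusted p = 0.23).

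Ferredoxins, the soluble iron-sulfur electron carriers, and the enzymes that use them made up 21 genes with g2456. Of the 20 others, those called higher in VLC numbered 1 after 3 h, 1 after 6 h, 7 after 12 h and 2 after 24 h, and 1 was called lower, only after 24 h. The 1 of 20 at 3 h and the 1 of 19 tested at 6 h stand beside 0.701 and 1.84% of all tested genes called higher. The 7 of 20 at 12 h and the 2 of 20 at 24 h stand beside 27.6 and 11.2% called higher. The 1 of 20 lower at 24 h stands beside 5.95% called lower. At an unadjusted p under 0.05 by limma 0, 2, 2 and 7 were lower and 4, 6, 16 and 7 were higher at the 4 times. Against the median gene, 5 were called higher and 2 lower at 12 h, beside 8.85 and 11.4% of all tested genes. The median log2 difference of the 20 was 0.067, 0.094, 0.87 and 0.11, beside -0.017, -0.056, 0.58 and 0.095 for all genes, with 19 of the 20 tested at 6 h. The ferredoxin g4849 had the highest value at 12 h, with 5.89 ± 0.83 FPKM in HC against 177 ± 16.1 in VLC (log2 4.69, SE 0.14, adjusted p = 1.5e-11 by limma). It was higher in VLC at 3 h too, by 4.37 (adjusted p = 3.0e-10), a difference of about the size of that of g2456 and opposite in direction. The lowest at 12 h was the putative 2Fe-2S ferredoxin g5722, at -0.57 (SE 0.09, adjusted p = 3.4e-05 by limma), within 2-fold as measured and called lower, at -1.15, against the median gene.

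No neighbour on either scaffold was called lower in VLC at 3, 12 or 24 h. Over all tested genes 0.268, 4.36 and 5.95% were, and none among so few neighbours is near those shares. Of the 5 genes before and the 5 after g2456, 5 were tested at 3 h and none was called, though 3 were lower at an unadjusted p under 0.05 by limma. At 12 h, 1 of 5 was called higher, beside 27.6% of all tested genes, and none against the median gene. At 24 h none of 6 was called and 1 was lower at an unadjusted p under 0.05 by limma. The median log2 difference of those tested was -0.25, 0.12 and -0.02 at 3, 12 and 24 h. The nearest gene on 1 side, the unannotated g2455, ends 464 bp before it, and its group means ran from 0 to 2.47 FPKM. On the other side g2457, also unannotated, lies 5026 bp away and had group means between 4.11 and 10.6 FPKM. Its log2 difference at 24 h, the only time of the 3 at which it was tested, was -0.02 (SE 0.14, adjusted p = 0.89 by limma).

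Most of the neighbours of g9217 that could be tested were higher in VLC at 12 h, where g9217 was lower. Of its 10 neighbours, 8 were tested. None was called at 3 h, 7 of the 8 were called higher in VLC at 12 h (5 of 8 against the median gene) and 3 of the 8 at 24 h, and none was called lower. Over all tested genes 27.6% were called higher at 12 h (8.85% against the median gene) and 11.2% at 24 h. Those called lower made up 0.268, 4.36 and 5.95% at 3, 12 and 24 h, shares near which none of 8 lies. The neighbour that was tested but not called at 12 h was g9215, a ribosomal protein L3, at 0.12, or -0.47 against the median gene. At an unadjusted p under 0.05 by limma 2 were lower and 1 higher at 3 h, none was lower at 12 h and 2 were lower at 24 h. The median log2 difference of the 8 was -0.15, 1.74 and 0.71 at 3, 12 and 24 h, beside -0.017, 0.58 and 0.095 over all tested genes. The gene 741 bp before it, g9216, an NAD-dependent epimerase/dehydratase, had 21.6 ± 1.83 FPKM in HC against 63.5 ± 0.74 in VLC at 12 h (log2 1.51, SE 0.19, adjusted p = 4.5e-06 by limma), or 0.93 against the median gene. The gene after it, g9218, annotated as a tryptophan hydroxylase, lies only 62 bp beyond g9217. Its level in HC was 2.58 ± 0.29 FPKM against 8.31 ± 1.44 in VLC at 12 h, and 0.87 ± 0.19 against 7.38 ± 0.82 at 24 h, levels at which it was not tested. The libraries do not keep strand, and g9218 was at 2.58 FPKM where g9217 was at 430 and 396. Whether reads of either gene were counted for the other was not tested.

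**Figure D4:**
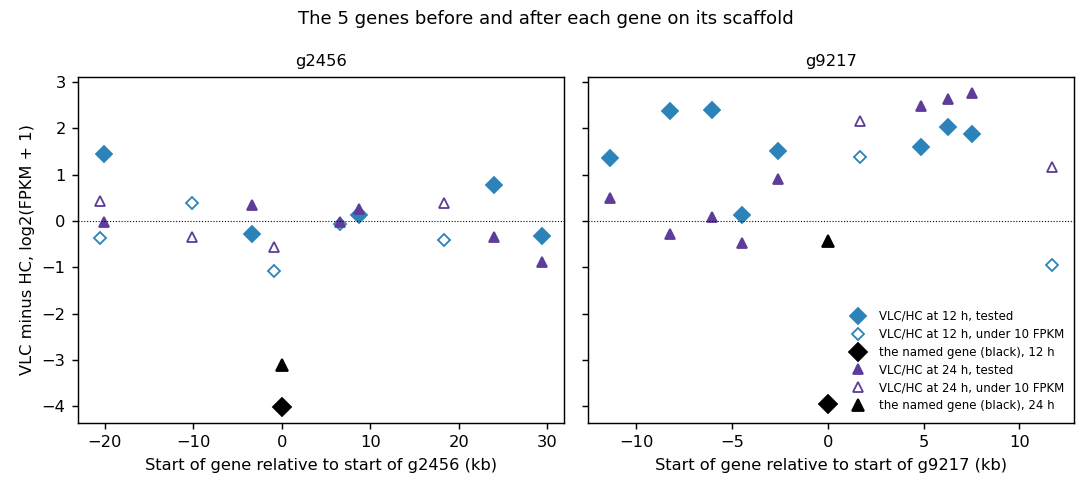
Log2(FPKM + 1) in VLC minus HC (y axis) of the 5 genes on either side of g2456 (left) and g9217 (right), plotted by the distance of their start from that of the named gene (x axis, kb), at 12 h (diamonds) and 24 h (triangles). Open symbols are genes under 10 FPKM in both arms and black symbols are g2456 and g9217. The neighbours of g2456 lie between -1.08 and 1.45 at both times, while those after g9217, up to g9221, lie between 1.37 and 2.76.

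The genes most like each of the 2 over the 9 group means were taken by Pearson's r on log2(FPKM + 1), among the 9264 other genes with at least 10 FPKM in any group. g9217 was the second most like g2456 (r = 0.88) and g2456 the second most like g9217, in part because the 6 h values chose both. The unannotated g5607 came first for both, with r = 0.88 to g2456 and 0.93 to g9217. The assimilatory nitrate reductase g2405, the enzyme that reduces nitrate to nitrite, was the third for both (r = 0.87 and 0.86), and the unannotated g8013 was the fourth (r = 0.86 and 0.84). The fifth was g7531, a putative coatomer delta subunit of vesicle coats, for g2456 (r = 0.84), and the unannotated g7214 for g9217 (r = 0.84). By correlation over the 18 libraries the same 5 genes came first for each. By rank correlation over the 9 groups 4 of the 5 stayed for g2456 but only 1, g2456 itself, for g9217.

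Of the genes among the 5 nearest to both, g5607 differed widely between the arms up to 12 h, by -2.86, -3.77 and -5.95 on the log2 scale after 3, 6 and 12 h, whereas g2405 differed by -1.26, -1.79 and -2.81 and g8013 by less than 2-fold. g5607 had 6.91 and 5.33 FPKM at 0 h, and in VLC it stayed between 0 and 1.09 FPKM in all 8 libraries. In HC it reached 14.7 and 8.81 FPKM after 3 h, 15.8 and 15.7 after 6 h and 96.5 and 88.7 after 12 h, and it had fallen to 3.21 and 3.41 by 24 h. Like g9217 it peaked in HC at 12 h and ended below its 0 h libraries. g2405 had 166 and 179 FPKM at 0 h and between 53.0 and 66.0 in all 8 VLC libraries. In HC it had 152 and 164 FPKM after 3 h, 195 and 192 after 6 h, 444 and 422 after 12 h and 178 and 178 after 24 h. It therefore never approached 0 in VLC and returned to its 0 h level in HC, where g2456 remained above it. g8013 varied only between 189 and 467 FPKM.

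**Figure D5:**
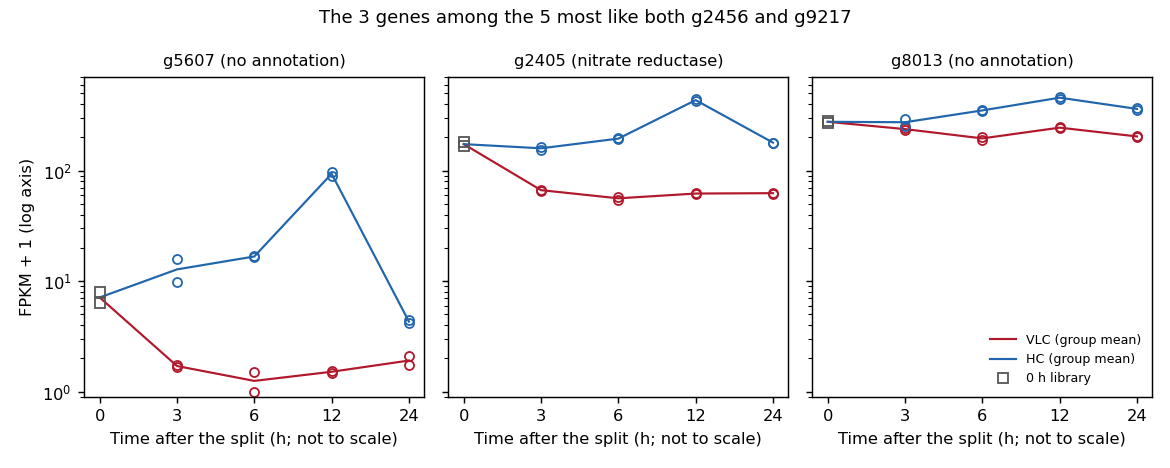
FPKM + 1 (log axis) against the time after the split (0, 3, 6, 12 and 24 h, evenly spaced) for the 3 genes that were among the 5 most like both g2456 and g9217, with squares for 0 h libraries, circles for VLC (red) and HC (blue) libraries and lines through group means. g5607 falls to between 0 and 1.09 FPKM in VLC and peaks at 96.5 and 88.7 FPKM in HC at 12 h, whereas g2405 and g8013 lie at higher levels, vary over a smaller range and are also highest in HC at 12 h.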

How the data were processed

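The deposited tables hold, for each group, the FPKM of 9756 genes in 2 libraries, with annotation and scaffold coordinates. Per the labels and methods, the authors made nonspecific-strand poly(A) libraries, aligned paired reads to their IMET1 genome with TopHat2 2.0.4, dropped multi-mapped reads and computed FPKM with Cufflinks (2.0.2 in the processing notes, another version in the methods). The build name is not given in the sources used here. Coordinates were shifted to count from 1. The study lists the reads of each library, but the FPKM tables hold no counts, and whole reads were not recovered from them: 60.9% of 745 low values lay within 0.1 of a whole number of reads.

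Differences were tested with limma 3.58.1 in R 4.3.3 on log2(FPKM + 1) with a variance trend, over 9665 genes with a mean of at least 1 FPKM in any group, after the first of the study's alternative criteria (10 FPKM, 2-fold and an adjusted p of 0.05). The other, for smaller changes at repeated times, was not used here. With 2 libraries against 2 an exact permutation test cannot go below p = 0.33, so none was used for single genes. The fit was tested on simulated data. Lists were taken by keyword from the deposited annotation or the study's protein annotation, and 3042 genes have none. Named genes were g2456 and g9217, every gene of the Rieske list, the highest and lowest gene at 12 h of the other keyword lists, the nearest gene on either side, the 5 genes most like each and the 3 just outside the 6 h limit. Both genes, the lists and the tests were chosen with earlier results of these data known. Alternatives were a pseudocount of 0.1 or 10, a minimum of 1 FPKM or none, values relative to the median gene, only the groups compared, no trend, each library left out, and a replicate block.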

Additional observations from a re-analysis of the deposited data

Results flagged for a closer look

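Of the results above, 3 stood out because the same contrast differed between times by the test of the difference itself. The VLC/HC log2 ratio of g2456 was 1.44 higher at 24 h than at 3 h (adjusted p = 0.0025 by limma, SE 0.33), and that of g9217 was 2.63 higher (adjusted p = 2.0e-06, SE 0.26). Without the first HC 3 h library the change of g2456 was 0.93, below 2-fold. From 3 h to 12 h the ratio of g9217 changed by -0.88 (adjusted p = 0.0078 by limma, SE 0.26), short of 2-fold and not called. Against the median gene it changed by -1.49. Groups of 2 libraries are too small for a test of single outlying libraries.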

How the results depend on the processing

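g2456 and g9217 kept their direction and their side of the threshold in 313 of 328 repeats of the 26 tests under other settings. The VLC/HC differences at 3, 12 and 24 h did so in all of them. With a pseudocount of 10, g2456 was no longer called in VLC at 3 h (-0.99) and 24 h (-0.92) or from 12 h to 24 h in VLC (-0.56), its VLC/HC change from 3 h to 12 h turned to -0.13, and that of g9217 became -1.56 and passed. Relative to the median gene these 2 changes were -0.076 and -1.49, and g9217 in VLC at 12 h turned from 0.0075 above 0 h to -0.14. Leaving out 1 library at a time, the change of g2456 ran from 0.93 to 1.94 between 3 h and 24 h and from 0.032 to 1.04 between 3 h and 12 h. That of g9217 between 3 h and 12 h ran from -1.07 to -0.69, and g9217 in HC at 3 h lay 0.73 to 1.12 above 0 h, and in VLC at 12 h it ran from -0.12 to 0.13. The genes called at 3 h numbered 76, 43 with a pseudocount of 10, 44 from the 2 groups alone and 71 to 157 with 1 library left out, the latter without the second HC 3 h library. The 2692 calls at 12 h became 1204 with a pseudocount of 10 and 1706 relative to the median gene, and the 1411 at 24 h became 891 with a pseudocount of 10. Labels do not say that a replicate number marks a shared culture, and same-numbered libraries did not deviate together (correlations of -0.18 to 0.13 over 36 pairs of groups). With a replicate block 77 genes were called at 3 h and no call of g2456 or g9217 changed. Fits that leave 1 library in a group assume that it varies like the others.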
